A study of Homo sapiens with 9 samples.

Results

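Base excision repair and mismatch repair are the pathways that remove damaged or mispaired single bases from DNA. In base excision repair a glycosylase cuts the damaged base from its sugar, an endonuclease opens the strand at the abasic site, a polymerase fills the gap and a ligase seals the nick. In mismatch repair a MutS-family dimer recognises a mispair left by replication, a MutL-family dimer is recruited to it, and an exonuclease degrades the strand that carries the error. The RNA of 28 genes of these pathways, of 60675 genes counted, was followed here. They were chosen by symbol from their known role, and all 28 were found in the data and passed the filter on low counts. By step they are 11 glycosylases, 6 endonucleases and end-processing enzymes, 2 gap-filling polymerases, 3 ligation genes and 6 mismatch repair genes.

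The 9 RNA-seq libraries were made from LNCaP:C4-2, a castrate-resistant human prostate cancer line derived from LNCaP. All cells carried a doxycycline-inducible shRNA construct introduced by lentivirus, were selected with puromycin, and received 1 μg/ml doxycycline for 6 days in medium with charcoal-stripped serum, in which steroid hormones are depleted. The sample titles name a vehicle in every group. There were 3 libraries each of a non-targeting control (shScramble) and of 2 shRNAs against METTL3 (guide 2 and guide 1), the catalytic subunit of the enzyme that writes N6-methyladenosine on mRNA. Each group carries 1 construct in cells that the study's methods call selected clones, with no number of clones given, and the descriptions do not say that the 3 libraries of a group came from separate cultures, so that p-values measure the spread between these libraries.

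METTL3 was counted 922, 1010 and 753 times in shScramble, 382, 415 and 349 times with guide 2, and 837, 837 and 886 times in the libraries labelled guide 1. METTL3 fell with guide 2 (log2 fold change -0.95, SE 0.0687, edgeR quasi-likelihood adjusted p = 2.97e-12). The libraries labelled guide 1 did not pass this test (log2 fold change -0.08, SE 0.0633, edgeR adjusted p = 0.251), and they are referred to by their label. Total counts were 21899501 to 30897639 per library. The number of genes with any count was 24884 to 26505 in the guide 2 libraries and 28459 to 29628 in the other 6. All 10 markers of a prostate luminal cancer line passed the filter on low counts, with summed levels of 2647 to 2671 CPM (counts per 1000000 counts) in shScramble, 3006 to 3139 in guide 2 and 1368 to 1412 in guide 1. With guide 2, 2 of the 10 were raised and 2 lowered (20% each, against 8.85% and 20.4% of all genes tested). Their log2 fold changes with guide 2 ran from -2.08 to 0.78. With guide 1, 0 were raised and 6 lowered (60%, against 16.5% of all genes lowered). Of 14 markers of stroma, leukocytes, endothelium and basal epithelium, 5 were at 0 in every library and 9, those included, were at no more than 3 counts in any. Their summed level was 43.9 to 48.0 CPM in shScramble, 36.8 to 40.3 in guide 2 and 19.9 to 26.5 in guide 1, of which the collagen gene COL1A1 alone held 43.5, 35.3 and 21.1 CPM on average.

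Throughout, levels are CPM scaled by edgeR's TMM factors, given as mean ± SD of 3 libraries. A gene is said to have risen or fallen where edgeR's adjusted p was under 0.05 and the change was at least 1.5-fold. In bulk RNA a change in the number of cells in a given state and a change in RNA per cell cannot be told apart.

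The direction of change was mixed within each comparison. With guide 2, 8 of the 28 genes rose (28.6%, against 8.85% of all 19278 genes tested) and 4 fell (14.3%, against 20.4% of all genes). In the libraries labelled guide 1, 10 rose (35.7%, against 21.2% of all genes) and 1 fell (3.57%, against 16.5%). UNG, NEIL3, FEN1 and EXO1 rose in both comparisons. TDG, NTHL1, NEIL2 and APEX2 passed only with guide 2, and POLB, LIG1, XRCC1 and MSH6 only with guide 1. APLF and MSH3 fell with guide 2 and rose with guide 1, NEIL1 and PMS1 fell with guide 2, MLH3 fell with guide 1, and the remaining 11 passed in neither. The median log2 fold change over the 28 was 0.30 with guide 2 and 0.22 with guide 1, against -0.04 and -0.02 over all genes tested. By adjusted p alone, with no limit on the fold, 17 genes were higher (30.0% of all genes) and 7 lower (31.7%) with guide 2, and 15 were higher (35.4%) and 7 lower (33.0%) with guide 1. The 3 libraries of guide 2 lay wholly above those of shScramble for 17 genes (32.5% of all genes) and wholly below for 8 (34.1%), and those of guide 1 for 15 (36.5%) and 9 (34.5%). In either direction 12 passed both limits with guide 2 (29.3% of all genes) and 11 with guide 1 (37.7%). Both comparisons use the same shScramble libraries, so they are not independent of each other. The shares of all genes that rose in both comparisons, or passed in opposite directions, were not counted. The 4 and 2 genes named above therefore have no background to be read against.

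These genes are mostly well expressed, which bears on how the background is read. By mean level over the 9 libraries, 16 of them lay in the highest of 3 equal classes of tested genes, 11 in the middle class and 1, APLF, in the lowest. Within the highest class of all genes, 10.7% rose and 3.38% fell with guide 2, and 10.7% rose and 10.3% fell with guide 1. In the middle class these shares were 9.41% and 19.5% with guide 2, and 25.3% and 17.4% with guide 1. In the lowest class they were 6.41% and 38.4% with guide 2, and 27.5% and 21.8% with guide 1.

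**Figure D1:**
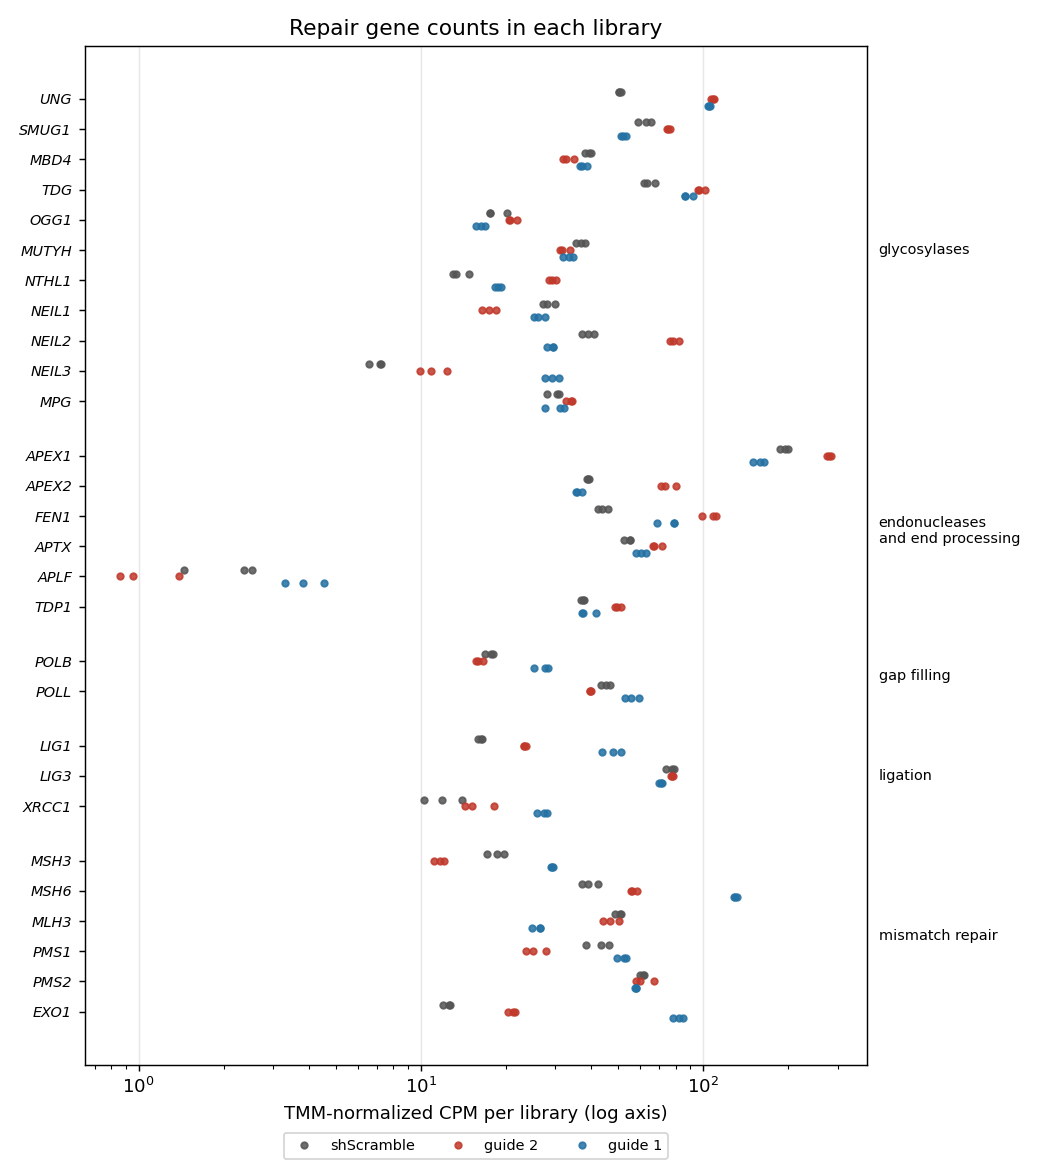
TMM-scaled CPM of the 28 genes in each of the 9 libraries, on a log axis, ordered by repair step, with 1 point per library (grey shScramble, red guide 2, blue guide 1). The 3 libraries of a group lie close together for most genes, with APEX1 highest and APLF lowest and most scattered, and the EXO1, MSH6 and LIG1 points of guide 1 lie well to the right of those of the other groups.

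The genes that rose in both comparisons act at several steps of repair. UNG encodes the uracil-DNA glycosylase that excises uracil from DNA. Its level was 51.2, 50.6 and 50.4 CPM in shScramble, 107, 109 and 110 in guide 2 and 106, 104 and 105 in guide 1. Both shRNA groups therefore lay at about the same level, well above the control and with no overlap. The rise was 2.14-fold with guide 2 (log2 1.10, SE 0.0458, edgeR adjusted p = 3.55e-17) and 2.07-fold with guide 1 (log2 1.05, SE 0.0455, edgeR adjusted p = 1.25e-17). The guides set directly against each other differed by 0.05 on the log2 scale, with a 95% interval of -0.04 to 0.13.

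FEN1, the flap endonuclease that trims displaced strands in long-patch repair and processes Okazaki fragments, was at 43.9, 42.3 and 46.2 CPM in shScramble, 98.9, 111 and 108 in guide 2 and 78.7, 68.9 and 79.0 in guide 1. Every guide 2 library was above every guide 1 library, and all 6 were above the control. It rose 2.41-fold with guide 2 (log2 1.27, SE 0.0585, edgeR adjusted p = 3.54e-16) and 1.71-fold with guide 1 (log2 0.78, SE 0.0586, edgeR adjusted p = 2.96e-12).

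EXO1, the exonuclease that resects the error-bearing strand in mismatch repair, had the largest change of the 28 genes with guide 1. Its levels were 12.6, 12 and 12.7 CPM in shScramble, 21.2, 20.4 and 21.5 in guide 2 and 78.5, 85 and 82.2 in guide 1. The groups formed 3 separate steps, with guide 2 much nearer to the control than to guide 1. The rise was 1.69-fold with guide 2 (log2 0.76, SE 0.0688, edgeR adjusted p = 2.46e-10) and 6.60-fold with guide 1 (log2 2.72, SE 0.0620, edgeR adjusted p = 9.25e-24).

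NEIL3, a glycosylase that removes oxidised bases and is known for its role at replication-blocking crosslinks, showed the same order. It was measured at 6.57, 7.19 and 7.23 CPM in shScramble, 9.97, 12.4 and 10.9 in guide 2 and 30.8, 27.6 and 29.1 in guide 1. No group overlapped another, and the rise with guide 2 was modest beside that with guide 1. The log2 fold change was 0.67 with guide 2 (SE 0.100, edgeR adjusted p = 1.85e-06) and 2.06 with guide 1 (SE 0.0896, edgeR adjusted p = 1.35e-17). The guide 2 rise missed the 1.5-fold limit without guide 2 replicate 2 (log2 0.58).

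Promoter sequence was not used to select these genes, though the genes and tests were chosen with earlier results of these data known. RefSeq promoters (GRCh38.p14, 250 bases before to 50 after the start) matched 25 of the 28 genes. They were searched on both strands for the E2F words TTTCCCGC, TTTCGCGC, TTTGCCGC and TTTGGCGC, for the NRF1 word GCGCATGC and for the cell-cycle homology region word TTTGAA. An E2F word was in 6 of the 25 (EXO1, LIG1, MSH3, MSH6, PMS2 and UNG), against 3.99% of 27305 genes in the table. The NRF1 word was in 4 (MLH3, NEIL3, TDP1 and UNG), against 3.68% of genes, and TTTGAA in 5 (MUTYH, NEIL3, TDP1, UNG and XRCC1), against 18.2%. Of the 6 genes with an E2F word, EXO1 and UNG rose in both comparisons, LIG1 and MSH6 only with guide 1, MSH3 fell with guide 2 and rose with guide 1, and PMS2 passed in neither. A match is a description of letters and does not show that a factor binds there.

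The matched stretches upstream of an annotated start are shown for UNG and NEIL3 to let the words be seen in place. Both are on the plus strand, and capitals mark the matched words. In UNG the E2F word lies 63 bases before a start, within the 30-base stretch chr12:109098099-109098128. This start belongs to a promoter at 109097922-109098221. It lies inside the gene, which the count files place from 109097574 to 109110992. In NEIL3 the NRF1 word overlaps itself on both strands from 104 bases before the start, within the 30-base stretch chr4:177309760-177309789.
UNG: agggaggtttTTTGCCGCgaaaagaccacg
NEIL3: gtgaaccacaGCGCATGCGCcgtagggagc

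Among the 11 glycosylases, 5 rose and 1 fell with guide 2 (45.5% and 9.09%, against 8.85% and 20.4% of all genes), and 2 rose and 0 fell with guide 1 (18.2% rose, against 21.2% of all genes). Beyond UNG and NEIL3, NTHL1 and NEIL2, bifunctional enzymes that remove oxidised pyrimidines and also nick the strand, rose with guide 2. NTHL1 was at 13.0, 13.3 and 14.8 CPM in shScramble, 28.5, 30 and 29.2 in guide 2 and 18.4, 18.8 and 19.2 in guide 1. It rose 2.14-fold with guide 2 (log2 1.10, SE 0.0740, edgeR adjusted p = 6.65e-13), whereas the guide 1 value was 1.37-fold and below the 1.5-fold limit. The guides differed directly by 0.64 on the log2 scale (SE 0.0714, edgeR adjusted p = 5.16e-09). Part of its exons, 16.5% of bases, is shared with TSC2 on the opposite strand, and the strand setting of the counting is not given in the sources used here.

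NEIL2 had opposite values under the 2 shRNAs. The libraries gave 39.2, 41.1 and 37.2 CPM in shScramble, 78.2, 76.3 and 82.0 in guide 2 and 29.3, 29.4 and 27.9 in guide 1. Guide 2 lay above the control and guide 1 below it, with no overlap on either side. The rise with guide 2 was 2.01-fold (log2 1.01, SE 0.0548, edgeR adjusted p = 8.43e-15). With guide 1 the log2 fold change was -0.44 (SE 0.0577, edgeR adjusted p = 1.13e-07), which did not reach 1.5-fold. The direct difference was 2.73-fold (log2 1.45, SE 0.0562, edgeR adjusted p = 6.02e-19).

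NEIL1, another of the Nei-like glycosylases, moved the other way. Its level was 29.8, 27.1 and 28.0 CPM in shScramble, 17.5, 18.4 and 16.5 in guide 2 and 25.3, 27.6 and 26.0 in guide 1. It fell with guide 2 (log2 fold change -0.70, SE 0.0724, edgeR adjusted p = 3.49e-09), and its guide 1 libraries overlapped the control (log2 -0.11, 95% interval -0.24 to 0.03). The exons of NEIL1 share 30.5% of their bases with other genes, chiefly MAN2C1 on the opposite strand, so that its counts are uncertain.

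TDG, the thymine-DNA glycosylase that also removes oxidised forms of 5-methylcytosine, was close to the limit in both comparisons. Its CPM were 63.4, 61.9 and 67.5 in shScramble, 96.8, 95.7 and 102 in guide 2 and 92.2, 86.5 and 86.2 in guide 1. All 6 shRNA libraries lay above the control. Only the guide 2 value passed 1.5-fold, at 1.53-fold (log2 0.61, SE 0.0498, edgeR adjusted p = 3.21e-11), and it did not without shScramble replicate 2 (log2 0.58) or with scaling by library size alone (log2 0.46). The guide 1 value was 1.38-fold, and the direct difference between the guides was 0.15 on the log2 scale with a 95% interval of 0.05 to 0.25.

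The other 5 glycosylases had changes under 1.5-fold in both comparisons. SMUG1, a second uracil glycosylase, was at 62.4 ± 3.34 CPM in shScramble, 75.4 ± 1.02 in guide 2 and 52.3 ± 0.911 in guide 1. MBD4, which acts on mispairs at methylated CpG sites, had 39.2 ± 0.872, 33.2 ± 1.63 and 37.6 ± 1.07 CPM. Neither reached the limit, and SMUG1 lay on opposite sides of the control under the 2 shRNAs. OGG1, which excises 8-oxoguanine, gave log2 fold changes of 0.20 with guide 2 and -0.17 with guide 1, and MUTYH, which removes adenine paired with 8-oxoguanine, gave -0.20 and -0.15. MPG, the alkyladenine glycosylase, gave 0.18 with guide 2 and 0.03 with guide 1, where the 95% interval was -0.10 to 0.16. OGG1 shares 29.0% of its exon bases with other genes, chiefly CAMK1, and MPG 27.3% with NPRL3.

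**Figure D2:**
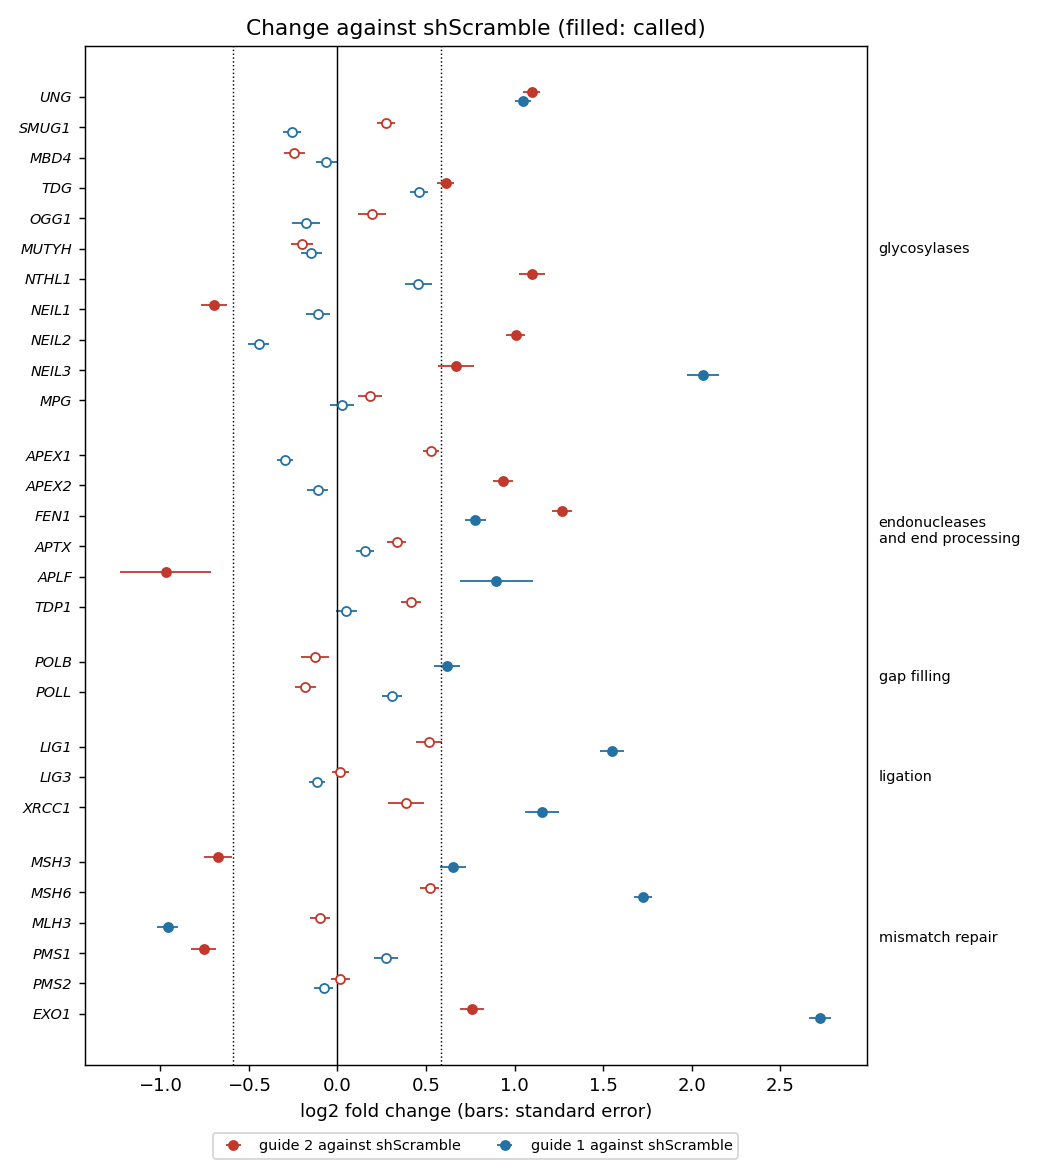
Log2 fold change of each gene against shScramble with guide 2 (red) and guide 1 (blue), with bars for the standard error, filled points for genes that passed both limits, and dotted lines at 1.5-fold. For guide 2, 6 glycosylase and 3 endonuclease or end-processing points are filled, for guide 1 these are 2 and 2, and EXO1 with guide 1 lies farthest to the right at 2.72.

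At the endonuclease and end-processing step, 2 of 6 genes rose and 1 fell with guide 2 (33.3% and 16.7%, against 8.85% and 20.4% of all genes), and 2 rose with guide 1 (33.3%, against 21.2%). APEX1, the main abasic-site endonuclease, was the most abundant of the 28 genes at 187, 199 and 195 CPM in shScramble, 284, 279 and 275 in guide 2 and 164, 150 and 160 in guide 1. Guide 2 was above and guide 1 below every control library. The changes were 1.44-fold with guide 2 (log2 0.53, SE 0.0451, edgeR adjusted p = 7.95e-11) and 0.815-fold with guide 1 (log2 -0.29, SE 0.0453, edgeR adjusted p = 1.86e-06), both short of the limit, while the direct difference of 1.77-fold passed (log2 0.82, SE 0.0454, edgeR adjusted p = 1.64e-15).

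APEX2, a second abasic-site endonuclease with strong 3′ exonuclease activity, rose with guide 2. It was at 38.8, 39.2 and 39.3 CPM in shScramble, 70.9, 73.2 and 80.4 in guide 2 and 35.7, 35.5 and 37.4 in guide 1. The guide 1 libraries lay just below the control and the guide 2 libraries at well above it. The rise was 1.91-fold (log2 0.94, SE 0.0554, edgeR adjusted p = 5.04e-14), and with guide 1 the log2 fold change was -0.11 (95% interval -0.22 to 0.00).

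APLF, a histone chaperone of strand-break repair, was the least abundant and least precise of the set. Its raw counts were 78, 46 and 54 in shScramble, 32, 24 and 19 in guide 2 and 109, 92 and 136 in guide 1. In CPM no group overlapped another, but the closest shScramble and guide 2 libraries were 1.44 and 1.39. It fell with guide 2 (log2 fold change -0.97, SE 0.256, edgeR adjusted p = 0.00193) and rose with guide 1 (log2 0.90, SE 0.204, edgeR adjusted p = 0.000329). On the same strand 22.8% of its exon bases are shared with PROKR1, so that reads there could be assigned to either gene.

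The remaining genes of this step, which unblock damaged strand ends, did not reach 1.5-fold. APTX, which removes adenylate groups left by failed ligation, had log2 fold changes of 0.33 with guide 2 and 0.16 with guide 1. TDP1, which frees DNA ends from trapped topoisomerase I, was at 37.4 ± 0.491 CPM in shScramble and 49.9 ± 1.10 in guide 2, a log2 fold change of 0.42, and its guide 1 libraries overlapped the control (log2 0.05, 95% interval -0.06 to 0.17).

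Gap filling and ligation genes passed both limits only in the libraries labelled guide 1. There 1 of 2 and 2 of 3 rose (50% and 66.7%, against 21.2% of all genes). With guide 2, 0 rose at either step, against 8.85% of all genes. POLB, the main gap-filling polymerase, was at 18.1, 17.7 and 16.8 CPM in shScramble, 16.6, 16 and 15.6 in guide 2 and 28.2, 25.2 and 27.5 in guide 1. It rose 1.54-fold with guide 1 (log2 0.62, SE 0.0718, edgeR adjusted p = 1.42e-08) and had a log2 fold change of -0.12 with guide 2 (95% interval -0.28 to 0.03). POLL, a related polymerase, stayed under the limit, with log2 fold changes of -0.18 and 0.31.

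LIG1, the ligase of replication and long-patch repair, was at 16.5, 16.4 and 15.9 CPM in shScramble, 23.2, 23.7 and 23.1 in guide 2 and 44, 51.2 and 48.1 in guide 1. The groups again formed 3 separate steps. The change with guide 2 was 1.43-fold and below the limit (log2 0.52, SE 0.0720, edgeR adjusted p = 5.80e-07). LIG1 rose 2.93-fold with guide 1 (log2 1.55, SE 0.0673, edgeR adjusted p = 1.32e-17). XRCC1, the scaffold that holds ligase and polymerase at single-strand breaks, was at 12.1 ± 1.85 CPM in shScramble, 15.9 ± 1.96 in guide 2 and 27.0 ± 1.11 in guide 1. It rose 2.23-fold with guide 1 (log2 1.15, SE 0.0939, edgeR adjusted p = 2.82e-11). With guide 2 XRCC1 lay above every control library but under the limit, at 1.31-fold (log2 0.39, SE 0.100, edgeR adjusted p = 0.00173). LIG3, the ligase that partners XRCC1 and also serves mitochondria, had log2 fold changes of 0.02 with guide 2 (95% interval -0.07 to 0.11) and -0.11 with guide 1. Exons of LIG3 share 30.5% of their bases, mostly with RFFL, and those of XRCC1 24.0%.

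Of the 6 mismatch repair genes, 1 rose and 2 fell with guide 2 (16.7% and 33.3%, against 8.85% and 20.4% of all genes), and 3 rose and 1 fell with guide 1 (50% and 16.7%, against 21.2% and 16.5%). Among the MutS genes, MSH6, which pairs with its partner to recognise base mispairs, was at 37.1, 39.1 and 42.4 CPM in shScramble, 55.4, 56.3 and 58.3 in guide 2 and 129, 130 and 132 in guide 1. It rose 3.30-fold with guide 1 (log2 1.72, SE 0.0514, edgeR adjusted p = 3.03e-21), and the guide 2 value was 1.44-fold. MSH3, which forms the alternative dimer for insertion and deletion loops, was at 19.7, 18.6 and 17.2 CPM in shScramble, 11.7, 12.1 and 11.1 in guide 2 and 29.2, 29.4 and 28.8 in guide 1. The control lay between the 2 shRNA groups with no overlap on either side. MSH3 fell with guide 2 (log2 -0.67, SE 0.0799, edgeR adjusted p = 4.17e-08) and rose with guide 1 (log2 0.65, SE 0.0711, edgeR adjusted p = 4.46e-09). Neither MSH3 nor APLF passed a stricter edgeR test against a change of 1.5-fold (glmTreat) in either comparison. The exons of MSH6 share 16.2% of their bases with FBXO11 on the opposite strand.

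Among the MutL genes, PMS1 was at 38.6, 43.4 and 46.6 CPM in shScramble, 24.9, 23.6 and 27.7 in guide 2 and 53.4, 49.5 and 52.4 in guide 1. It fell with guide 2 (log2 -0.75, SE 0.0711, edgeR adjusted p = 6.37e-10), and with guide 1 the log2 fold change of 0.28 was under the limit. MLH3, which is best known for a role in meiotic crossing over, passed only with guide 1. It was at 48.8, 50.8 and 51.2 CPM in shScramble, 50.2, 46.6 and 44.1 in guide 2 and 24.8, 26.4 and 26.5 in guide 1. The guide 2 libraries overlapped the control, and the guide 1 libraries were well below every control library. MLH3 fell with guide 1 to 0.516 times the control (log2 -0.96, SE 0.0600, edgeR adjusted p = 4.80e-14). PMS2, the endonuclease subunit of the main MutL dimer, was at 60.9 ± 0.789, 61.7 ± 4.84 and 57.8 ± 0.267 CPM, with log2 fold changes of 0.02 (95% interval -0.09 to 0.12) and -0.08 (95% interval -0.18 to 0.03). PMS2 has near-identical pseudogene copies, and its counts are uncertain.

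The direct comparison of the shRNAs called 15 of the 28 genes, 5 higher in guide 2 (17.9%, against 19.1% of all genes tested) and 10 lower (35.7%, against 28.2%). In either direction this was 53.6% against 47.3% of all genes, a share near the background. By adjusted p alone 13 were higher in guide 2 (34.7% of all genes) and 12 lower (39.9%), and the libraries did not overlap for 14 and 12 genes (35.4% and 40.4%). The genes higher in guide 2 were NTHL1, NEIL2, APEX1, APEX2 and MLH3. Those lower in guide 2 were NEIL1, NEIL3, APLF, POLB, LIG1, XRCC1, MSH3, MSH6, PMS1 and EXO1, with NEIL1 just past the limit (log2 -0.59, SE 0.0727, edgeR adjusted p = 3.33e-08) and short of it by DESeq2 (log2 -0.58). The median log2 difference over the 28 was 0.07, against -0.06 over all genes.

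**Figure D3:**
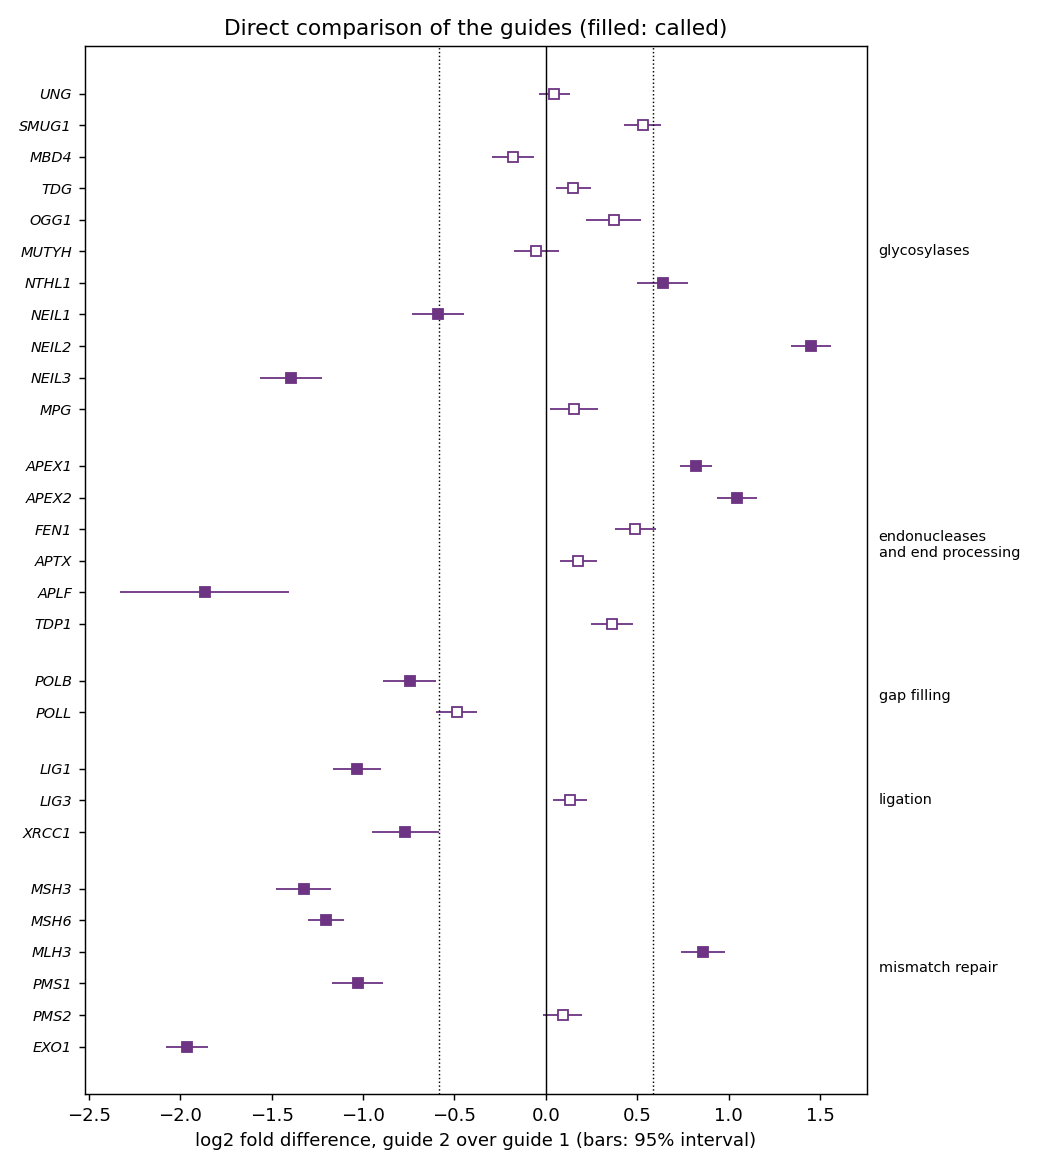
Log2 difference of guide 2 over guide 1 for each gene, with bars for the 95% interval, filled squares for genes that passed both limits and dotted lines at 1.5-fold. NEIL2 lies farthest to the right at 1.45, EXO1 farthest to the left at -1.96, and UNG at 0.05 has an interval that spans 0.

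Levels were also compared per kilobase of exon, using the merged length of all annotated exons of a gene. That length can far exceed the canonical transcript, at 8733 against 1630 bases for OGG1 and 10993 against 4265 for MSH6. The order between genes therefore depends on the length used, and canonical length was not tried. By merged exons, shScramble was led by APEX1 at 103 ± 3.23 CPM per kilobase. It lay far above UNG at 19.8 ± 0.169, MPG at 17.9 ± 0.930 and FEN1 at 17.8 ± 0.782. MPG and FEN1 overlapped and could not be ordered. At the low end were NEIL3 at 2.36, OGG1 at 2.11 and APLF at 0.296 CPM per kilobase. In this order 14 genes lay above the next one in every library and 13 overlapped it. APEX1 remained first and APLF last in both shRNA groups.

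**Figure D4:**
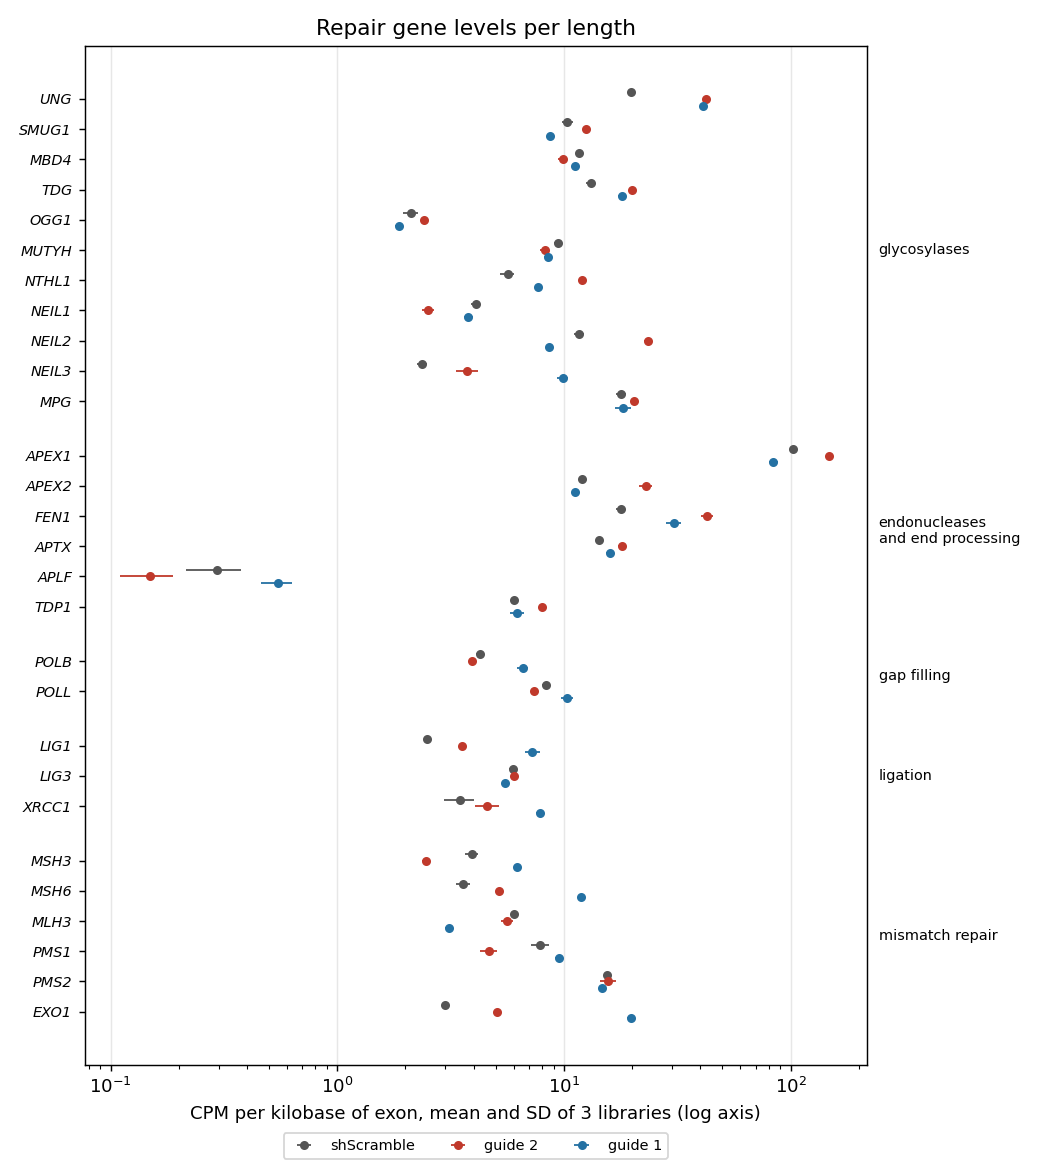
TMM-scaled CPM per kilobase of exon of each gene on a log axis, as mean and SD of 3 libraries per group (grey shScramble, red guide 2, blue guide 1). APEX1 lies near 103 in shScramble and APLF near 0.296, and most of the others fall between these with small SDs.

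Other genes of DNA repair and replication were measured alongside. Of 22 further repair genes (PARP enzymes, replicative polymerase subunits, PCNA, RFC and RPA), 8 rose and 1 fell with guide 2. This was 36.4% and 4.5%, against 8.85% and 20.4% of all genes, with a median log2 fold change of 0.47. With guide 1, 13 rose and 2 fell (59.1% and 9.09%, against 21.2% and 16.5% of all genes), with a median of 0.71. PCNA, the sliding clamp that both pathways use, rose with guide 2 (log2 1.17, SE 0.0505) and with guide 1 (log2 1.31, SE 0.0502). POLD1, the catalytic subunit of polymerase delta, rose with guide 2 (log2 1.09), with mean levels of 29.1 CPM in shScramble, 62.0 in guide 2 and 61.8 in guide 1. POLE, that of polymerase epsilon, fell with guide 2 (log2 -0.68). With guide 1 POLD3 rose (log2 1.22), and POLD4 and POLE4 fell (log2 -1.0 and -0.77).

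Most genes of DNA replication in S phase rose in both comparisons. Of 20 such genes, 18 rose with each shRNA (90%, against 8.85% of all genes with guide 2 and 21.2% with guide 1). The medians were 1.01 and 1.55 on the log2 scale. Their summed level was 865 to 930 CPM in shScramble, 1844 to 1911 in guide 2 and 2669 to 2765 in guide 1. RRM2, the small subunit of ribonucleotide reductase, had the largest rise with guide 2 (log2 1.66) and MCM3, part of the replicative helicase, with guide 1 (log2 2.26). Directly compared by edgeR, 9 of the 20 were lower in guide 2 (45%, against 28.2% of all genes) and 0 higher (against 19.1%). Of 12 genes of G2 and mitosis, 2 rose with guide 2 (16.7%, against 8.85% of all genes, median 0.35). With guide 1, 5 rose (41.7%, against 21.2% of all genes, median 0.46). Among them were CDK1 with guide 2 (log2 1.09) and AURKB with guide 1 (log2 1.61). The summed level of the 28 repair genes was 1142 to 1165 CPM in shScramble, 1500 to 1538 in guide 2 and 1422 to 1461 in guide 1. The part of replication or cell cycle state in the changes of the repair genes was not tested.

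METTL3 methylates adenosine within short RNA motifs such as GGACT. The count of this word in the transcripts was not used in the selection, which was made with earlier results of these data known. Per kilobase of canonical transcript, the median over the 28 genes was 0.858, against 0.924 over 20046 protein-coding genes. It was 0.496 for the 4 genes lowered with guide 2, 0.858 for the 8 that rose and 0.916 for the 16 that passed in neither direction. The median GC content of the same groups was 39.5%, 51.3% and 48.8%. The 4 lowered genes were uneven, at 0.262 (APLF), 0.317 (PMS1), 0.675 (MSH3) and 1.62 (NEIL1) per kilobase. In the same order, their GC content was 37.5%, 36.4%, 41.6% and 61.3%. Grouped by guide 1, the median was 0.811 per kilobase for the 10 genes that rose and 0.943 for the 17 that passed in neither direction, with a GC content of 44.1% and 51.0%. The 1 gene lowered with guide 1 had 0.895 per kilobase and a GC content of 41.3%. These are descriptions of few genes, and N6-methyladenosine itself was not measured in these libraries.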

How the data were processed

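RNA-seq of 9 LNCaP:C4-2 libraries in 3 groups of 3 was analysed, with groups and replicate numbers taken from the sample titles. Per the labels and the study's methods, the authors trimmed reads with Trim Galore (cutadapt, FastQC), aligned them to GRCh38 with STAR and assigned them to Ensembl genes with featureCounts. The deposited values are each gene's raw count per library. Tool versions, strand setting and treatment of multi-mapping reads are not given in the sources used here. Of 60675 genes, 56558 (93.2%) matched a GENCODE v44 symbol, and exon lengths were taken from the deposited files.

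Counts were analysed with edgeR 4.0.16 (R 4.3.3): TMM scaling, filterByExpr (minimum count 10, minimum total 15, leaving 19278 genes) and a robust quasi-likelihood test with all 9 libraries in one model and no covariates. P-values were adjusted by Benjamini-Hochberg over all genes tested, and a gene was called at adjusted p under 0.05 and at least 1.5-fold. Intervals are normal approximations from the standard error. The biological coefficient of variation was 0.0512. TMM factors were 0.928 to 1.04. The scripts were tested on simulated counts. At these depths 3 counts correspond to 0.0971 to 0.137 CPM.

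Same-numbered libraries did not deviate together (correlations -0.0981 to 0.0529), so no pairing was used. No libraries agreed within sampling noise (lowest chi-square per gene 3.71). Alternatives were DESeq2 1.42.0, other scaling, filters and thresholds, fewer libraries, a replicate block and leaving out each library. Every listed gene and METTL3 is named. Of the companion lists at most 2 called genes with the largest rise and 2 with the largest fall are named per comparison. COL1A1 was named after its values were seen. The genes, lists and tests were chosen with earlier results of these data known. Promoter stretches were shown for genes called with guide 2 that held a searched word upstream of the start, and 1 of these is not reported here.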

Additional observations from a re-analysis of the deposited data

Results flagged for a closer look

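The effects of guide 2 and guide 1 against the shared shScramble libraries differed for 15 of the 28 genes, by the direct edgeR test between the guides (adjusted p under 0.05 and at least 1.5-fold). This is 53.6% of the genes against 47.3% of all genes tested. The log2 difference, guide 2 over guide 1, was positive for NEIL2 (1.45), APEX2 (1.05), MLH3 (0.86), APEX1 (0.82) and NTHL1 (0.64). It was negative for EXO1 (-1.96), APLF (-1.86), NEIL3 (-1.39), MSH3 (-1.32), MSH6 (-1.20), LIG1 (-1.03), PMS1 (-1.03), XRCC1 (-0.77), POLB (-0.74) and NEIL1 (-0.59). For MSH3 and APLF each guide passed the test against shScramble, in opposite directions. The share of all genes that did so was not counted. METTL3 RNA also differed between the guides (log2 -0.86, SE 0.0689, edgeR adjusted p = 5.30e-12). Whether the remaining METTL3 level bears on these differences was not tested.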

How the results depend on the processing

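With adjusted p under 0.05 alone, and no fold limit, 17 genes were higher and 7 lower with guide 2, 7 were lower with guide 1, and 13 were higher in guide 2 than in guide 1. With a test against a 1.5-fold change (glmTreat), 1 gene fell with guide 2 in place of 4. Over all 19278 genes, 2371 fell by this test in place of 3939. That test also lost TDG and NEIL3 with guide 2, APLF, POLB and MSH3 with guide 1, and NTHL1 and NEIL1 between the guides. The median level over the 28 genes, in CPM per kilobase, went from 7.65 to 7.15 in guide 2 and from 9.14 to 9.40 in guide 1 with library size alone. That scaling moved the median of all genes from -0.04 to -0.19 with guide 2, gave 6 repair genes raised and 4 lowered, and took TDG (0.46) and NEIL3 (0.52) under the limit. Over all 19278 genes it gave 1012 raised and 4865 lowered with guide 2, against 1706 and 3939 with TMM. Of all genes called with guide 2, 30.2% were raised with TMM and 17.2% with library size alone. Leaving out each library gave 7 to 8 genes raised and 4 lowered with guide 2, 10 raised and 1 lowered with guide 1, and 5 higher and 9 to 10 lower between the guides.

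Signs turned only for values under 1.5-fold. With library size alone the guide 2 values of LIG3 and PMS2 became -0.13 and -0.13, and the values between guides of UNG, LIG3 and PMS2 became -0.0909, -0.00595 and -0.0447. With a mean of at least 1 CPM, LIG3 and PMS2 with guide 2 became -0.0305 and -0.0316. Leaving out a library gave ranges of -0.00995 to 0.0422 for LIG3 and -0.0430 to 0.0626 for PMS2 with guide 2, and -0.0179 to 0.0853 for MPG and -0.00140 to 0.0817 for TDP1 with guide 1. Between the guides NEIL1 was under 1.5-fold by DESeq2, without the filter on low counts, with only the 6 libraries compared, and without any 1 of the shScramble libraries, guide 2 replicate 1 or 3, or guide 1 replicate 2 (-0.58 to -0.54). Library size alone also took NTHL1 between the guides under the limit (0.50) and POLL past it (-0.62). The call of TDG was lost with a mean of at least 1 CPM (0.56) and without shScramble replicate 2 (0.58), and that of NEIL3 with guide 2 without guide 2 replicate 2 (0.58). Each cause was not tested. The replicate block gave 8 raised and 4 lowered with guide 2 and 10 raised and 1 lowered with guide 1, and changed no call. Counting depth limited APLF most, at 19 to 136 counts per library.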
